A study of Caenorhabditis elegans with 2 samples.

Results

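The 7 genes described here, K05C4.2, C16C10.4, spe-48, nmad-1, C46F11.4, B0495.9 and F39G3.3, lie beside some of the strongest promoter peaks of MED-1-eGFP in Caenorhabditis elegans embryos. They were selected on measured values: each is the nearest protein-coding gene to a nuclear promoter peak among the 20 peaks with the highest signal of the 460 in the optimal list. They are 7 of the 19985 protein-coding genes of the annotation, and 3 further genes that meet the same rule, idhg-1, atx-2 and ears-2, serve only for comparison. High signal in that list is therefore a property of the choice and not a result, and none of the values below was tested.

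The data come from anti-GFP chromatin immunoprecipitation sequencing (ChIP-seq) of whole hermaphrodite embryos collected at mid-embryogenesis, in a single group of 2 biological replicates. All animals were of the strain OP391, whose genotype is unc-119(ed3) III with the transgene wgIs391, which carries med-1::TY1 EGFP FLAG C and unc-119(+). The tagged protein is thus made from a transgene, unc-119(+) rescues the mutation in the same animals, and whole embryos mix all cell types, so signal cannot be assigned to any one of them. The control experiment named in the labels, and ChIP for GFP alone or for other factors, were not analysed here, and read depth is unknown because the lists hold no counts.

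MED-1 is a small GATA-type zinc finger protein that acts early in the mesendoderm, the early lineage behind the gut and a large part of the pharynx and body muscle. In that lineage SKN-1 activates the med genes, and MED-1 in turn activates the endoderm genes end-1 and end-3 through a site that differs from the usual GATA site. In ChIP-seq, DNA bound to the tagged protein, directly or through other proteins, is enriched with an antibody and sequenced. A peak is a stretch where such fragments pile up, its summit is the position of the highest pile, and a promoter is the stretch around a gene's transcription start.

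The reference sequences around 5 of the summits are shown because short GC-rich words recur close to the summit in them. K05C4.2 holds such words too, but its sequence is not shown here. Each is the 201 bp of the ce11 genome (WBcel235, RefSeq) centred on the deposited summit and written 5′ to 3′ along the gene. C16C10.4 is at chrIII:4171080-4171280 on the plus strand, nmad-1 at chrIII:5555031-5555231 on the minus strand and C46F11.4 at chrIII:3664338-3664538 on the minus strand. B0495.9 is at chrII:7708681-7708881 on the minus strand and F39G3.3 at chrV:4731490-4731690 on the plus strand. Capitals mark the words CGCGCG and GCGCGC and CGCGCA, the word TTGCAA and the Sp1 site CCACCC or CCGCCC, each on either strand.
C16C10.4: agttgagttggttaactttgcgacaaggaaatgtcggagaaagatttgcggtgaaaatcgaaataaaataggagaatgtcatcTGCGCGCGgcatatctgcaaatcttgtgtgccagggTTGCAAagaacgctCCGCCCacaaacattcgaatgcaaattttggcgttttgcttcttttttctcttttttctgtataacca
nmad-1: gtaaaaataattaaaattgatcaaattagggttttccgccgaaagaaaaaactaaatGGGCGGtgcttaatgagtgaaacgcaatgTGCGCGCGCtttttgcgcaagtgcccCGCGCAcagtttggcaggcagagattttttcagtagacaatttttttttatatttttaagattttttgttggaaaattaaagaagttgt
C46F11.4: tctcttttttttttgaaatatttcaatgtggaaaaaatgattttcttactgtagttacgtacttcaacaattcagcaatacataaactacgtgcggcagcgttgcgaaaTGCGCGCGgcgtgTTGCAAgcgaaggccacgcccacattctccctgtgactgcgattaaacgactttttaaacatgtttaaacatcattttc
B0495.9: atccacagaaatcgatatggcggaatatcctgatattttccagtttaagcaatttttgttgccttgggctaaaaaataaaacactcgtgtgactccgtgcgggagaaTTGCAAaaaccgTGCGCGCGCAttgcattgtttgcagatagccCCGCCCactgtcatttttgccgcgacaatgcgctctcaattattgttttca
F39G3.3: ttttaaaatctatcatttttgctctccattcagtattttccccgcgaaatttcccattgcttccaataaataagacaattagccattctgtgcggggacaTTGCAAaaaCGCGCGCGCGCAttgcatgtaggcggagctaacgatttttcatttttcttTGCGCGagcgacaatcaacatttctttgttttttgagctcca
In each of the 5 windows a run of alternating C and G lies near the middle, and in C46F11.4, B0495.9 and F39G3.3 TTGCAA stands a few bases from it.

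C16C10.4 (WBGene00007625) encodes a putative histone deacetylase complex subunit SAP18, a protein that in mammals associates with the Sin3 deacetylase complex. The authors' signal of its peak was 341 in the optimal list (rank 8), 169 in replicate 1 (rank 7) and 172 in replicate 2 (rank 10). All 3 lists placed the summit on the same base, chromosome III position 4171180, and the replicates averaged 171 ± 2.36 (SD, n = 2), the smallest spread of the 7.

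nmad-1 (WBGene00017304) encodes a DNA N6-methyl adenine demethylase of the AlkB family, whose members remove methyl groups by oxidation. Its peak had a signal of 289 in the optimal list (rank 13), 120 in replicate 1 (rank 18) and 167 in replicate 2 (rank 12). The replicates averaged 143 ± 33.4 (SD, n = 2), the widest spread of the 7, and their summits were 8 bp apart.

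F39G3.3 (WBGene00018208) encodes a histone H3-K79 methyltransferase of the Dot1 type, the enzyme class that methylates the core of the histone in yeast and mammals. Its peak had a signal of 253 in the optimal list (rank 18), 109 in replicate 1 (rank 22) and 144 in replicate 2 (rank 16). The replicates averaged 127 ± 24.7 (SD, n = 2) and their summits were 16 bp apart, the largest gap among the 7. Its optimal peak is also the narrowest in that list at 85 bp, with the summit 10 bp from the left end, whereas its peaks in replicates 1 and 2 had the usual widths of 296 and 336 bp.

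C46F11.4 (WBGene00008119) encodes an RNA helicase, an enzyme that unwinds RNA or remodels RNA-protein complexes. Its peak had a signal of 262 in the optimal list (rank 15), 147 in replicate 1 (rank 9) and 107 in replicate 2 (rank 34). Replicate 1 was 1.37 times as high as replicate 2, and C46F11.4 is the only member in which replicate 1 was the higher. The replicates averaged 127 ± 28.3 (SD, n = 2).

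K05C4.2 (WBGene00010579) encodes a jagunal homolog, and jagunal is a protein of the endoplasmic reticulum first described in Drosophila oocytes. Its peak was the strongest of the 7, with a signal of 399 in the optimal list (rank 4), 182 in replicate 1 (rank 6) and 215 in replicate 2 (rank 5). The replicates averaged 199 ± 23.5 (SD, n = 2) and their summits were 3 bp apart.

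spe-48 (WBGene00021771) encodes a protein with a ubiquitin-associated (UBA) domain, and spe genes are named for defects in spermatogenesis. Its peak had a signal of 303 in the optimal list (rank 12), 131 in replicate 1 (rank 14) and 172 in replicate 2 (rank 11). The replicates averaged 152 ± 28.4 (SD, n = 2) with summits 3 bp apart. Replicate 2 gave the higher value in K05C4.2 and spe-48, as it did in 6 of the 7 genes. Among 157 other promoter peaks measured in both replicates, replicate 1 was the higher in only 55, so this direction is not particular to the 7.

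B0495.9 (WBGene00015208) encodes a protein that RefSeq lists as uncharacterized. Its peak had a signal of 261 in the optimal list (rank 16), 125 in replicate 1 (rank 17) and 133 in replicate 2 (rank 21). The replicates averaged 129 ± 5.81 (SD, n = 2) with summits 8 bp apart, so this gene and C16C10.4 are the members on which the replicates lay closest.

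**Figure D1:**
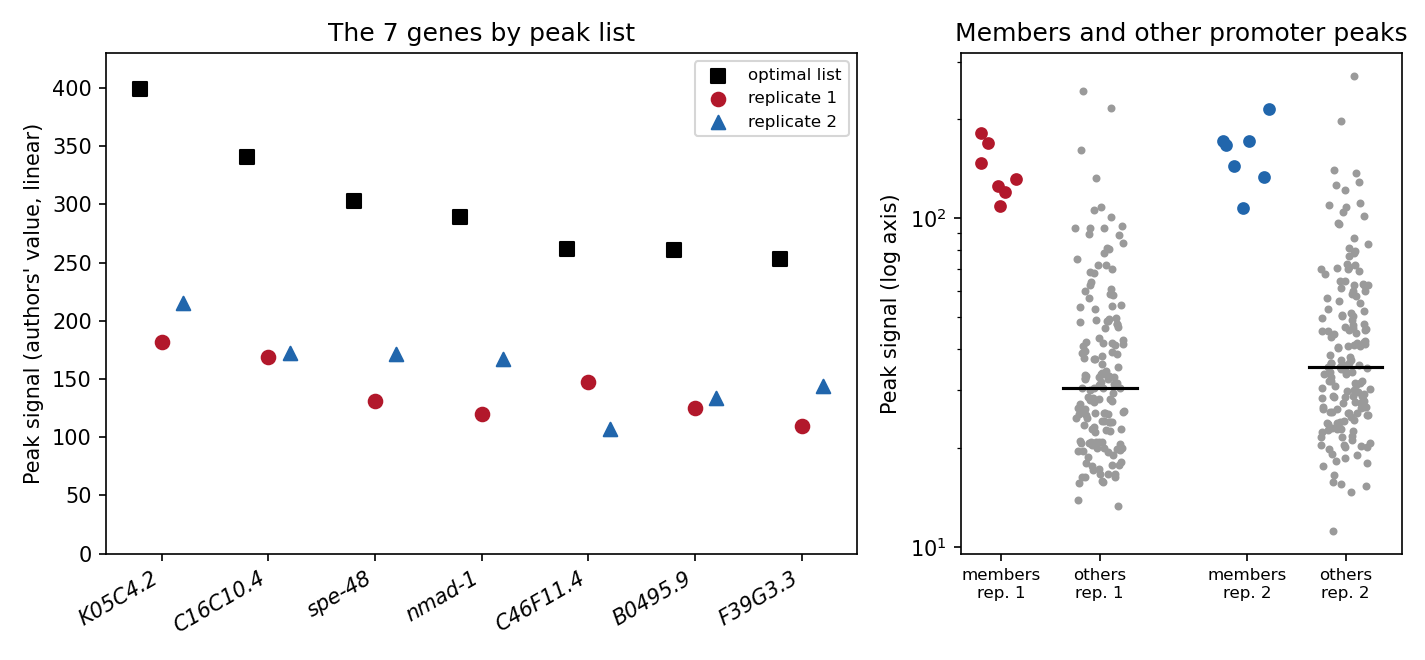
Left, peak signal (authors' value, linear axis) of each of the 7 genes in the optimal list and in replicates 1 and 2, and right, signal (log axis) of the 7 and of the other promoter peaks in each replicate, with a bar at the median of the others. The optimal values of the 7 genes run from 253 to 399, and only C46F11.4 among the 7 has replicate 1 above replicate 2.

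Within a list the 7 peaks ranked together, as the selection makes them do in the optimal list. Their ranks ran from 6 to 22 in replicate 1 and from 5 to 34 in replicate 2, and 6 and 5 of the 7 were among the 20 strongest peaks of those lists. The list of replicate 1 holds 2401 peaks and that of replicate 2 holds 30000, so a rank in one is not equal to the same rank in the other. The pooled list gave each of the 7 the same signal, rank, width and summit as the optimal list. On the ce10 build the optimal ranks of all 7 were the same as on ce11, and the signals were equal at 3 significant digits.

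The optimal signal was almost the sum of the replicate signals, at 0.998 to 1.03 times that sum over the 7, against a median of 1.01 for the 157 other promoter peaks with a peak in replicate 1. The pooled list behind it combines both replicates, so its values and the replicate values are not independent readings. The other promoter peaks are the 167 nuclear peaks of the optimal list with a summit within 500 bp of a protein-coding start. They also have no small RNA gene (tRNA, rRNA, snRNA or snoRNA) within 200 bp. The median optimal signal was 289 for the 7 and 63.6 for those 167, 4.54 times as high by a choice made on this value.

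The replicate lists, which were used with the pooled one to make the optimal list, gave the same ordering as a description. In replicate 1 the median signal was 131 for the 7, against 30.6 for the 157 others with a peak in that list. The remaining others have no replicate 1 value and are left out of that median. In replicate 2 it was 167 for the 7, against 35.2 for all 167 others. Replicate 1 over replicate 2 had a median of 0.846 for the 7 (range 0.718 to 1.37). It was 0.837 for the 157 others with both values (quartiles 0.680 and 1.12).

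Summits of the 2 replicates lay 0 to 16 bp apart for the 7, with a median of 8 bp, and a median of 18 bp apart for the others (quartiles 6 and 38 bp, largest 204 bp). Among the others 73 of 157 (46.5%) were also within 16 bp, so closeness of the summits is shared by many weaker promoter peaks.

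The 7 optimal peaks were narrow: 217 bp for K05C4.2, 179 bp for nmad-1, 168 bp for B0495.9 and 167 bp for C16C10.4, with 151 bp for spe-48, 117 bp for C46F11.4 and 85 bp for F39G3.3. A fixed width of 324 bp was given to 95.7% of the optimal list and to 158 of the 167 other promoter peaks (94.6%). Of all 174 promoter peaks, 16 were narrower than 324 bp, and the lowest signal among those 16 was 194. The highest signal of a promoter peak with the full 324 bp was 208, and only 2 such peaks exceeded 194, so narrow widths came with the highest signals and width is not independent of the rule.

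**Figure D2:**
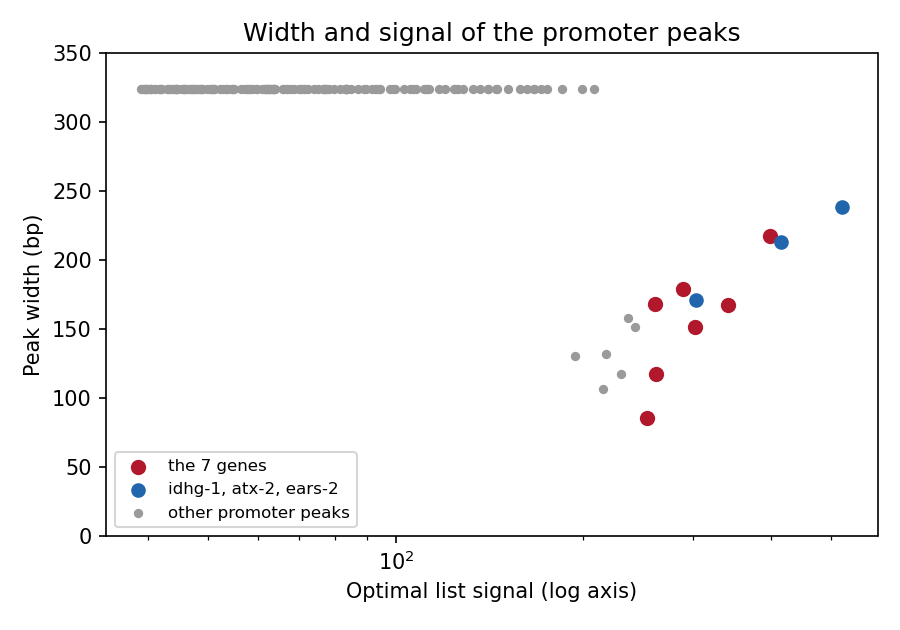
Width (bp) against signal (authors' value, log axis) of the 174 nuclear promoter peaks of the optimal list, with the 7 genes, the comparison genes and the other peaks in separate colours. The 7 lie between 85 and 217 bp, while 158 of the other 167 have the fixed width of 324 bp.

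In the replicate lists narrow peaks were also found at most of the 7. In replicate 1 the widths ran from 82 to 296 bp with a median of 109 bp, and only F39G3.3 had the common 296 bp. In replicate 2 they ran from 98 to 336 bp with a median of 169 bp, and C46F11.4 and F39G3.3 had the common 336 bp.

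The rule keeps only summits within 500 bp of a protein-coding start, for the 7 and the 167 others, so the distances are bounded by the choice. All 7 summits lay upstream of the nearest start. The distance was 37 bp for spe-48, 71 bp for B0495.9 and 134 bp for C46F11.4. It was 156 bp for C16C10.4, 197 bp for nmad-1, 272 bp for K05C4.2 and 321 bp for F39G3.3. The median of the 7 was 156 bp, against 163 bp for the 167 others, of which 154 (92.2%) were upstream.

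K05C4.2 is the member with a qualified label. The gene spans chromosome I 14720588 to 14721979 on the minus strand, and its summit at 14721627 lies inside it. The shorter transcript starts at 14721355, with the summit 272 bp upstream, and the longer one starts at 14721979, with the summit 352 bp downstream in an intron. For the other 6 genes the summit lies outside the gene.

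Close upstream neighbours differed between the members. spe-48 at chromosome I 1950594 to 1958527 (minus strand) faces Y51F10.11, with the RefSeq product defect at low temperature protein 1, whose start is 143 bp from the summit. C16C10.4 at chromosome III 4171336 to 4172223 (plus strand) faces rnf-121, an E3 ubiquitin ligase gene, at 227 bp. nmad-1 at chromosome III 5553489 to 5554934 (minus strand) faces hach-1, which encodes a mitochondrial 3-hydroxyisobutyryl-CoA hydrolase, at 319 bp.

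These 3 of 7 peaks sit between coding starts that point away from each other within 500 bp, against 61 of the 167 others (36.5%). B0495.9, at chromosome II 7707586 to 7708710 (minus strand), has its nearest divergent start, that of the serpentine receptor gene sre-1, at 923 bp. F39G3.3, at chromosome V 4731911 to 4734723 (plus strand), has tig-2, a gene of the TGF-beta family, at 1429 bp. C46F11.4, at chromosome III 3657712 to 3664304 (minus strand), has the long non-coding RNA gene linc-82 at 420 bp and K05C4.2 has no divergent coding start within 2000 bp. Where 2 starts flank a summit, the nearer one gave the peak its gene, and the peak itself says nothing of which gene it belongs to.

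**Figure D3:**
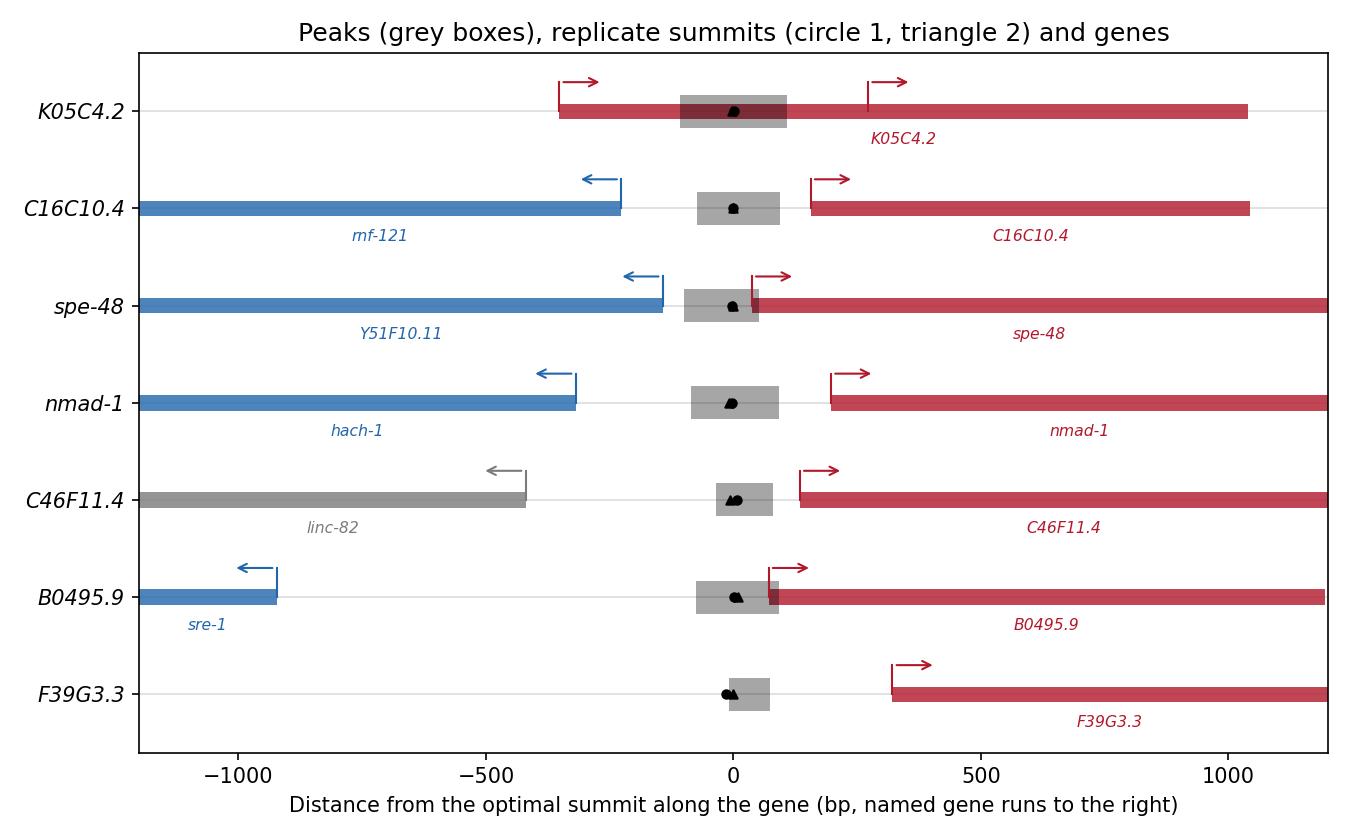
Optimal peaks (grey boxes), replicate summits (circle for replicate 1, triangle for replicate 2) and genes around each of the 7 summits, as distance from the optimal summit along the named gene (bp). The named gene is red, other coding genes are blue, a non-coding gene is grey, and arrows mark starts, 2 of them for K05C4.2. The summits lie 37 to 321 bp upstream of the nearest start, and only spe-48, C16C10.4 and nmad-1 have a divergent coding start within 500 bp of the summit.

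Weaker entries were listed around the 7, in lists that hold background as well as peaks. Within 2 kb of each gene the pooled list held 1 to 4 further entries, the strongest of them with signals of 12.7 to 29.1. The median of that whole list was 15.0. Scores of these strongest entries were all below 0, from -0.341 to -0.0803, so they may be background. The peak of the gene was 13.7 to 22.0 times as high. The list of replicate 1, which is the shorter one, held no further entry near any of the 7. That of replicate 2 held 1 to 4 near each gene but nmad-1, with signals of up to 14.5, and the strongest again had scores below 0. There the peak of the gene was 7.42 times its strongest neighbour in C46F11.4 and at least 13.7 times in the other 5. The nearest tRNA, rRNA, snRNA or snoRNA gene was at least 31290 bp from each summit, and other kinds of small RNA gene were not looked up. Every stretch of 36 bases in each window occurs only once in the genome, so the windows are unique at that length.

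The summit windows of 6 of the 7 genes held CGCGCG, and the same 6 held GCGCGC and CGCGCA, with spe-48 the exception. These words overlap each other within a single stretch, so they are not 3 separate findings. The comparison promoters are 19973 windows of the same 201 bp, from 150 bp upstream to 50 bp downstream of each start. They are placed by the start and the peak windows by the summit, which lay 37 to 321 bp upstream for the 7. The positions thus differ, and the effect of this on the shares was not tested. CGCGCG was in 14.4% of the 167 other peaks and 1.91% of all promoters, GCGCGC in 24.6% and 2.17%, and CGCGCA in 34.1% and 3.71%. The 3 comparison genes, which are among the 167, hold such words as well: CGCGCG is in 3 of 3, CGCGCA in 2 of 3 (atx-2 and ears-2) and GCGCGC in 1 of 3 (atx-2). The words are therefore not particular to the 7 among the strongest promoter peaks.

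Among all 6-letter words, ATTTTC alone was in all 7 windows, but it was also in 58.1% of the other peaks and 53.8% of all promoters. CAAAAA was in 6 of the 7, against 68.3% of the other peaks and 56.5% of all promoters. These A-rich and T-rich words are thus common in worm promoters, unlike the GC-rich ones.

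None of the 14 flank windows of the 7, which lie 300 to 500 bp from the same summits, held any of the 3 GC-rich words. At least 1 of the 3 words was found in 49.7% of the 167 other peaks and 5.45% of all promoters. The nearest such word was centred 0.5 to 21.5 bp from the summit in the 6 genes, with a median of 11.5 bp. Among the 83 other peaks with a word the median was 16.5 bp, and 60 of them were within 30 bp.

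Stretches covered by these words were 12 bp long in K05C4.2 and F39G3.3, 10 bp in B0495.9, 9 bp in nmad-1 and 8 bp in C16C10.4 and C46F11.4. TTGCAA, which reads the same on both strands and is called the AT-edged word in the plots, was in 5 of the 7 windows, all but spe-48 and nmad-1. It was in 35.9% of the other peaks and 9.96% of all promoters, and in none of the 14 flanks. Its edge lay 0 bp from the stretch in K05C4.2, 3 bp in F39G3.3, 5 bp in C46F11.4, 6 bp in B0495.9 and 28 bp in C16C10.4.

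Among the 42 strongest of the 167 other peaks TTGCAA was in 69.0%, among the next 42 in 42.9%, among the 42 after that in 21.4% and among the weakest 41 in 9.76%. For CGCGCG the shares in the same order were 26.2%, 19.0%, 9.52% and 2.44%. For CGCGCA they were 42.9%, 38.1%, 28.6% and 26.8%. For GCGCGC they were 40.5%, 23.8%, 28.6% and 4.88%, and for any of the 3 GC-rich words 66.7%, 47.6%, 54.8% and 29.3%. The shares of TTGCAA and of CGCGCG and of CGCGCA were lower at each step down in signal, while those of GCGCGC and of any GC-rich word were not in steady order. The words TTGCAA and CGCGCG and GCGCGC were picked after the 7 windows had been seen.

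**Figure D4:**
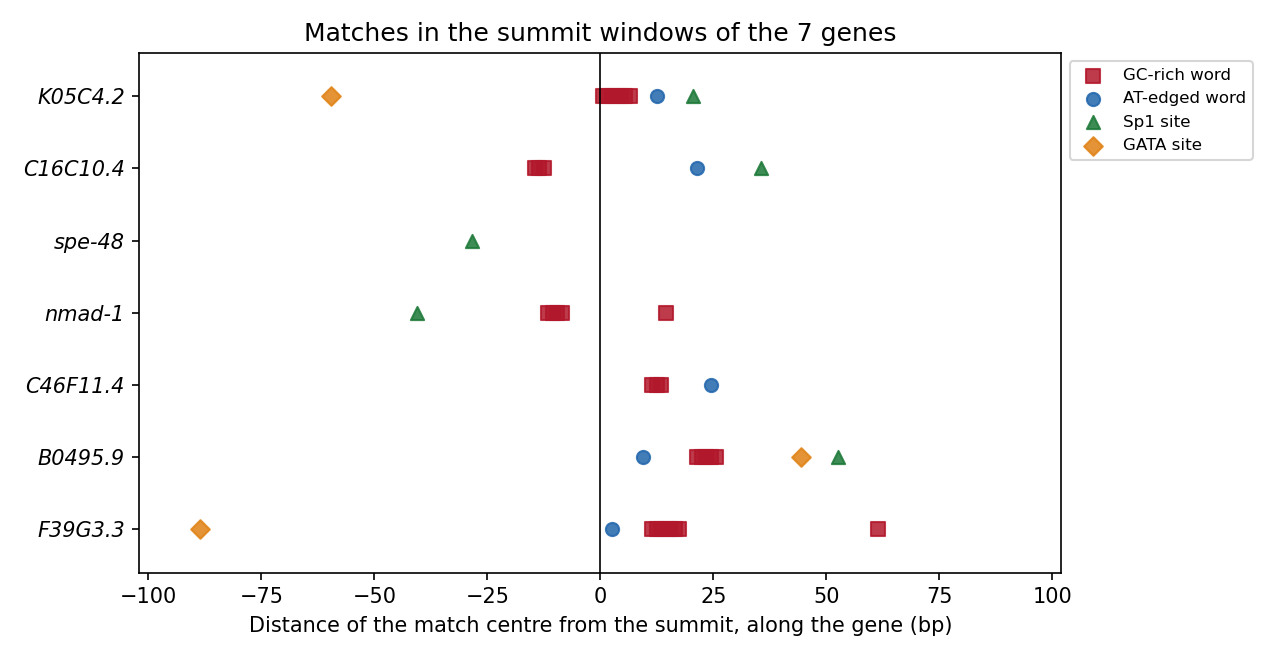
Centres of matches to the GC-rich words (CGCGCG or GCGCGC or CGCGCA), the AT-edged word TTGCAA, the Sp1 site and the GATA site in the 201 bp windows, as distance from the summit along the gene (bp). The nearest GC-rich word lies within 21.5 bp of the summit in 6 genes, and F39G3.3 has a further one at 61.5 bp. The only match in spe-48 among these is an Sp1 site.

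Sites of known factor classes were counted on both strands in the same windows. The Sp1 site (CCACCC or CCGCCC), bound by zinc finger proteins of the Sp and KLF family, was in K05C4.2, C16C10.4, spe-48, nmad-1 and B0495.9. These 5 of 7 compare with 32.3% of the other peaks and 9.39% of all promoters, and the flanks held it in 0 of 7 windows on the left and 2 of 7 on the right. Among the 42 strongest other peaks the share was 59.5%, and in the weaker groups it was 33.3%, 19.0% and 17.1%. The comparison genes idhg-1 and atx-2 held the site too, so it is not particular to the 7 among strong promoter peaks. All 5 genes held the form CCGCCC, which was in 31.1% of the other peaks (57.1% of the 42 strongest) and 5.73% of all promoters.

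The E2F site (TTCCCGC or TTCGCGC or TTGCCGC or TTGGCGC), bound by cell cycle regulators, was in 2 of 7 windows, those of K05C4.2 and B0495.9. It was in 21.0% of the other peaks and 5.82% of all promoters. CCGCAC was in 5 of 7 windows, all but C16C10.4 and nmad-1, against 35.3% of the other peaks and 2.84% of all promoters. Of the 14 flank windows 2 held this word. It was in 61.9% of the 42 strongest other peaks and in 33.3%, 31.0% and 14.6% of the weaker groups. All 3 comparison genes held it, so it too is not particular to the 7.

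Matches to the site of MED-1 itself were not found in any of the 7 windows. The MED site, AGTATAC after A or G, was in 0 of 7, in 0.599% of the other peaks and in 0.751% of all promoters, and its core AGTATAC was in 0 of 7, in 1.20% and in 1.08%. The general GATA site, GATA after A, C or T and before A or G, was in 3 of 7 windows (K05C4.2, B0495.9 and F39G3.3), in 25.1% of the other peaks and in 50.4% of all promoters. Its form TGATAA was in 1 of 7, that of K05C4.2, against 4.79% of the others and 21.9% of all promoters.

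A site for the SKN-1 factor upstream of MED-1 (TATCAT or TGTCAT after a pair of A or T bases) was in K05C4.2 and C16C10.4, 2 of 7, against 7.78% of the others and 11.1% of all promoters. The forkhead site, T then A or G, then TTT, then A or G, then C or T, was in 3 of 7, against 38.3% of the others and 38.6% of all promoters.

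Of the remaining patterns, a run of 8 T was in 2 of 7 windows (20.4% of the others and 22.7% of all promoters) and GA repeated 4 times in 0 of 7 (2.99% of the others and 2.43% of all promoters). CGCACA was in 3 of 7 windows, against 34.7% of the others and 4.57% of all promoters. GCGCAC was in 2 of 7, against 37.1% of the others and 3.47% of all promoters, and ACGCGC in 1 of 7, against 31.7% and 3.54%. These words can overlap the GC-rich ones. GCGCCA was in 0 of 7, against 28.1% of the others and 3.23% of all promoters, and TGCGTCT in 0 of 7, against 5.99% and 3.14%. A word that is absent says only that these letters are not in the window.

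**Figure D5:**
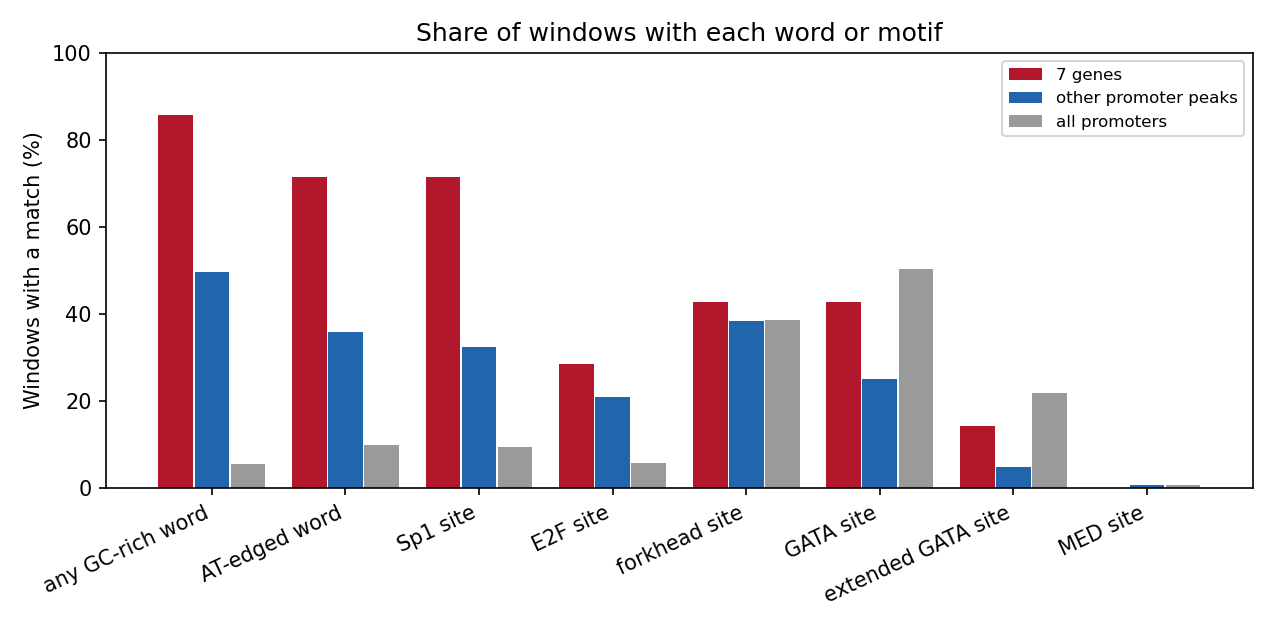
Percent of 201 bp windows that hold each word or motif (vertical axis) in the 7 genes, the 167 other promoter peaks and all promoters. GC-rich words are in 85.7%, 49.7% and 5.45% of windows in that order, and the GATA site in 42.9%, 25.1% and 50.4%.

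The GC content of the windows was 35.8% in nmad-1 to 47.3% in spe-48, with a median of 40.8%, against 39.3% for the other peaks, 34.3% for the 14 flanks and 34.3% for all promoters. CG dinucleotides numbered 10 to 20 with a median of 13, against 12 in the other peaks, 6.5 in the flanks and 6 in all promoters. spe-48, which lacks the GC-rich words, has the highest GC content and the 20 CG dinucleotides. Across the 174 promoter peaks, GC content and signal had a Spearman rho of 0.0067, given as a description of peaks from the same libraries.

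The longest word that 2 members share was 8 to 17 bp over the 21 pairs, with a median of 10 bp. It reached 17 bp between K05C4.2 and F39G3.3, 15 bp between B0495.9 and F39G3.3 and 14 bp between K05C4.2 and B0495.9. A shared word of at least 12 bp was found in these 3 of 21 pairs and in 961 of 13861 pairs of other peaks.

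The 7 genes lie above a threshold that cuts through a continuous range. Just inside were F39G3.3 with a signal of 253 at rank 18, and peaks beside a small RNA gene at rank 19 (246) and on the mitochondrial genome at rank 20 (244). Just outside were the promoter peaks of ccdc-47 at rank 21 (242) and K05C4.7 at rank 23 (236). ccdc-47 encodes a subunit of the PAT complex of membrane protein folding, and K05C4.7 an armadillo repeat protein.

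Of the 157 other promoter peaks measured in both replicates, ears-2, ccdc-47 and K05C4.7 were nearest to the median values of the 7. Likeness was the Euclidean distance on the log2 scale of the 2 replicate signals, and it was 0.39 for ears-2, 0.42 for ccdc-47 and 0.49 for K05C4.7. ears-2, a mitochondrial glutamyl-tRNA synthetase gene, had signals of 161 in replicate 1 and 141 in replicate 2. ccdc-47 had 106 in replicate 1 and 137 in replicate 2.

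Other genes with related roles were looked up in the optimal list, where 356 of all 19985 protein-coding genes (1.78%) were the nearest gene to a peak within 2 kb. A gene counted as having a peak only if it was that nearest gene. Of 30 spe and fer genes, 3 had a peak: spe-48 by its selection, spe-15, a myosin gene, and spe-39, a vesicle trafficking gene. spe-12 did not count, though the pooled list held a stronger peak near it, with a signal of 175 (rank 38). The peak of spe-15 had a signal of 97.0 (rank 124) and lay 585 bp from the start beside a small RNA gene, and that of spe-39 had 94.2 (rank 127) at 157 bp. Of 5 genes of the AlkB family and DNA adenine methylation only nmad-1 had a peak.

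Of 6 Sin3 and histone deacetylase genes, lin-53, an RbAp48-type histone chaperone gene, was the nearest gene to a peak with a signal of 49.8 (rank 325). That peak ranked 857 in replicate 1, outside the 460 strongest peaks of that list, and 318 in replicate 2, inside them. The same peak was the best one listed near rba-1. hda-1 also lay near a peak, with 79.5 (rank 168), whose nearest gene was ril-1. Of 46 genes with the RefSeq product RNA helicase, 3 were the nearest gene to a peak, C46F11.4 by its selection, mel-46 with 88.9 (rank 145) and mog-5 with 81.3 (rank 164). cgh-1 lay near a peak with 43.0 (rank 399), whose nearest gene was sap-140. mog-5 ranked 489 in replicate 1, so it too lay outside the 460 strongest peaks of that list, but it ranked 139 in replicate 2, inside them. Of 5 UBA domain genes, F49C12.9 had a peak with 128 (rank 68) besides spe-48. The single genes named for a histone H3-K79 methyltransferase, SAP18 or jagunal are members themselves.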

How the data were processed

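The authors deposited peak lists with a signal value per peak, a score in the q-value column (which falls below 0 in lists with background) and a summit offset. Per the deposited file lists, each replicate's list was made from its alignments and a control, the pooled list from both replicates, and the optimal list by the irreproducible discovery rate (IDR). The aligner, the peak caller and its version were not given in the sources used here, nor was the threshold for IDR. Depth is unknown, so no counting interval is given, and the number of replicates, 2, limits precision.

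Peaks on ce11 were matched between lists by an overlap of at least 1 bp. Genes came from Ensembl release 115, products and sequences from RefSeq. A promoter peak has its summit within 500 bp of a protein-coding start and no small RNA gene within 200 bp. Small RNA genes here are those for tRNA, rRNA, snRNA and snoRNA. Python 3.11.15, NumPy 2.4.6, SciPy 1.17.1 and Matplotlib 3.10.9 were used. Of the 16 motifs searched, the Sp1 site, the E2F site and TGCGTCT were checked on simulated data. The other patterns were not checked in this way. The named genes are the members, the 3 comparison genes, close neighbours, tig-2 as a farther neighbour and genes at the rank limit. Also named are listed genes with a peak or near one, the nearest genes of such peaks and the 3 promoter peaks nearest in replicate signal. Members, lists and motifs were chosen with earlier results of these data known. The words CGCGCG and GCGCGC, the words TTGCAA and CCGCAC, their combinations, the split by signal and the RefSeq product lists were chosen after the windows were seen. Alternatives were single replicate lists, the pooled and ce10 lists, ranking by the q-value score, other distances and other windows.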

Additional observations from a re-analysis of the deposited data

How the results depend on the processing

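The count of 7 among the 20 strongest peaks is fixed by the selection. The pooled and ce10 lists hold the same ranks, leaving out non-nuclear peaks can only raise a rank, and 142 peaks tie at the top of the q-value score, so the count of 7 under these settings says nothing of stability. With single replicates, which also entered the selection, it was 5 to 6. Within 2000 bp instead of 500 bp, 5 of the 7 had a divergent neighbour rather than 3. The Sp1 site, in 5 summit windows, was in 0 left and 2 right windows, the E2F site, in 2, was in 0 left, 0 right and 0 windows of 50 bp each side, and CGCGCA, in 6, was in 0 left and 0 right windows. The GATA site, in 3, was in 1 window of 50 bp each side. The Sin3 and deacetylase list had 0 to 1 genes with a peak when either replicate was left out, against 1. The flank and narrower windows hold other or fewer bases by construction. The cause of the other shifts was not tested. Of 66 values for other motifs 14 were labelled moved, 3 higher and 11 lower, again by a cut-off not given here. Some counts labelled the same also differed. The SKN-1 site went from 2 to 3 windows at 200 bp each side, and CGCACA from 3 to 2 in the left flank. Of 28 ranks 11 were labelled moved, by a cut-off not given here. Ranks labelled the same could differ as well. That of F39G3.3 went from 18 to 22 without replicate 2, and that of C46F11.4 from 15 to 8 among nuclear peaks. No paired analysis was possible because the design has 1 group and no test.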
